A study of Trichoderma reesei with 18 samples.

Results

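The genes at the ends of the chromosomes of Trichoderma reesei were described here as 280 of the 10879 rows of the deposited count table. Row identifiers consist of the prefix Tr, a letter from A to G, a number and the ending W or C, and 3 rows of the mating type locus have another form. The letter was taken as the chromosome and the number as the order along it, and the 20 lowest and 20 highest numbers of each of the 7 letters were taken as its low and high end. The files do not state what the letter, the number or the ending stand for. The numbers run from 1 to between 1209 and 2149 without gaps, so a position here is a number of rows from the end, not a distance in bases. The rule for the 280 rows uses the identifiers and no expression value, but it was chosen with earlier results of these data known.

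Chromosome ends of fungi are known as regions of repeats and of heterochromatin, whose genes are often silent under laboratory growth. Their genes are often poorly conserved between species. Such regions are also known for clusters of neighbouring genes of secondary metabolism that are switched on together under some conditions. Light is known in this fungus as a signal that acts on secretion of cellulases, secondary metabolism and development. MAP kinase kinases are the middle step of kinase cascades, and the HOG and pheromone cascades are known for osmotic stress and for mating.

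RNA had been sequenced from mycelium of the strain QM6a (wild type, WT) and of 2 deletion mutants in QM6a, which lack TR80186, the MAP kinase kinase named for the HOG pathway (Δ80186), or TR21168, that named for the pheromone pathway (Δ21168). Each strain was grown on cellulose for 96 h in constant darkness (the dark groups) or constant light (the light groups), with 3 libraries per group and 18 in all. The labels give neither the number of transformants behind each mutant nor whether the 3 libraries came from separate cultures, so the spread behind the p-values is that of these libraries and may be technical. The identifiers are not paired with the numbers of the deleted genes, so their loss was not checked here, and 0 of them were found among the 9116 genes of the reference table, so no gene name or function is given and the labelled mycelium could not be checked by markers.

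Library totals ranged from 7945697 to 15672321 counts, so that 3 reads, the limit that a count of 0 allows, correspond to 0.191 to 0.378 CPM in a library. The libraries of Δ21168 carry library numbers in a series apart from those of WT and Δ80186, so this series and the genotype cannot be told apart in comparisons of Δ21168 with WT. Light and darkness of a strain lie within the same series. Levels are CPM, counts scaled to a common library size with TMM factors. Gene lengths are not in the table, so CPM are not per length, and where a gene is called the one with the most reads, it is by reads and not by level per length. In bulk RNA, fewer cells that use a gene and less RNA per cell cannot be told apart.

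End genes held few reads. Of the 280 end genes, 30 (10.7%) had no read in any of the 18 libraries, against 240 (2.26%) of the 10599 other genes. The low-count filter (filterByExpr, about 0.785 CPM in at least 3 libraries) was passed by 181 end genes (64.6%) and by 84% of the others. The median of the mean CPM over 18 libraries was 1.35 for all end genes and 23.9 for all others, and it was 4.99 and 36.7 for those that passed the filter. Low ends and high ends were near each other in the share that passed and in level: 94 and 87 of their 140 genes passed, with medians of 1.53 and 1.12 CPM over all genes. They differed in genes without reads, with 21 (15%) at low ends and 9 (6.43%) at high ends. Of the 21, 11 lay at the low end of F. The ending W was carried by 66 of 140 genes at the low ends and by 66 of 140 at the high ends.

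The fewest reads lay nearest the end. Of the 14 outermost genes 8 had no read and 3 passed the filter, namely TrA0001W, TrC1580C and TrE0001C. Of the outermost 5 genes of each end, 50% passed, and the share was 62.9% at 6 to 10 rows from the end, 75.7% at 11 to 15, 70% at 16 to 20 and 84.4% beyond 100 rows. The median level over the same genes went from 0.355 CPM in the outermost 5 to 1.39, 1.6 and 1.44 in the next bins and was 26.2 CPM beyond 100 rows. The low end of F stood apart among the 14 ends: the 11 genes from TrF0001C to TrF0011W had 0 reads in all 18 libraries. A longer run of rows without reads lies inside F, 24 rows from TrF0656W to TrF0679C. At the low end of E all 20 genes passed the filter, and at the low end of A 17 did.

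**Figure D1:**
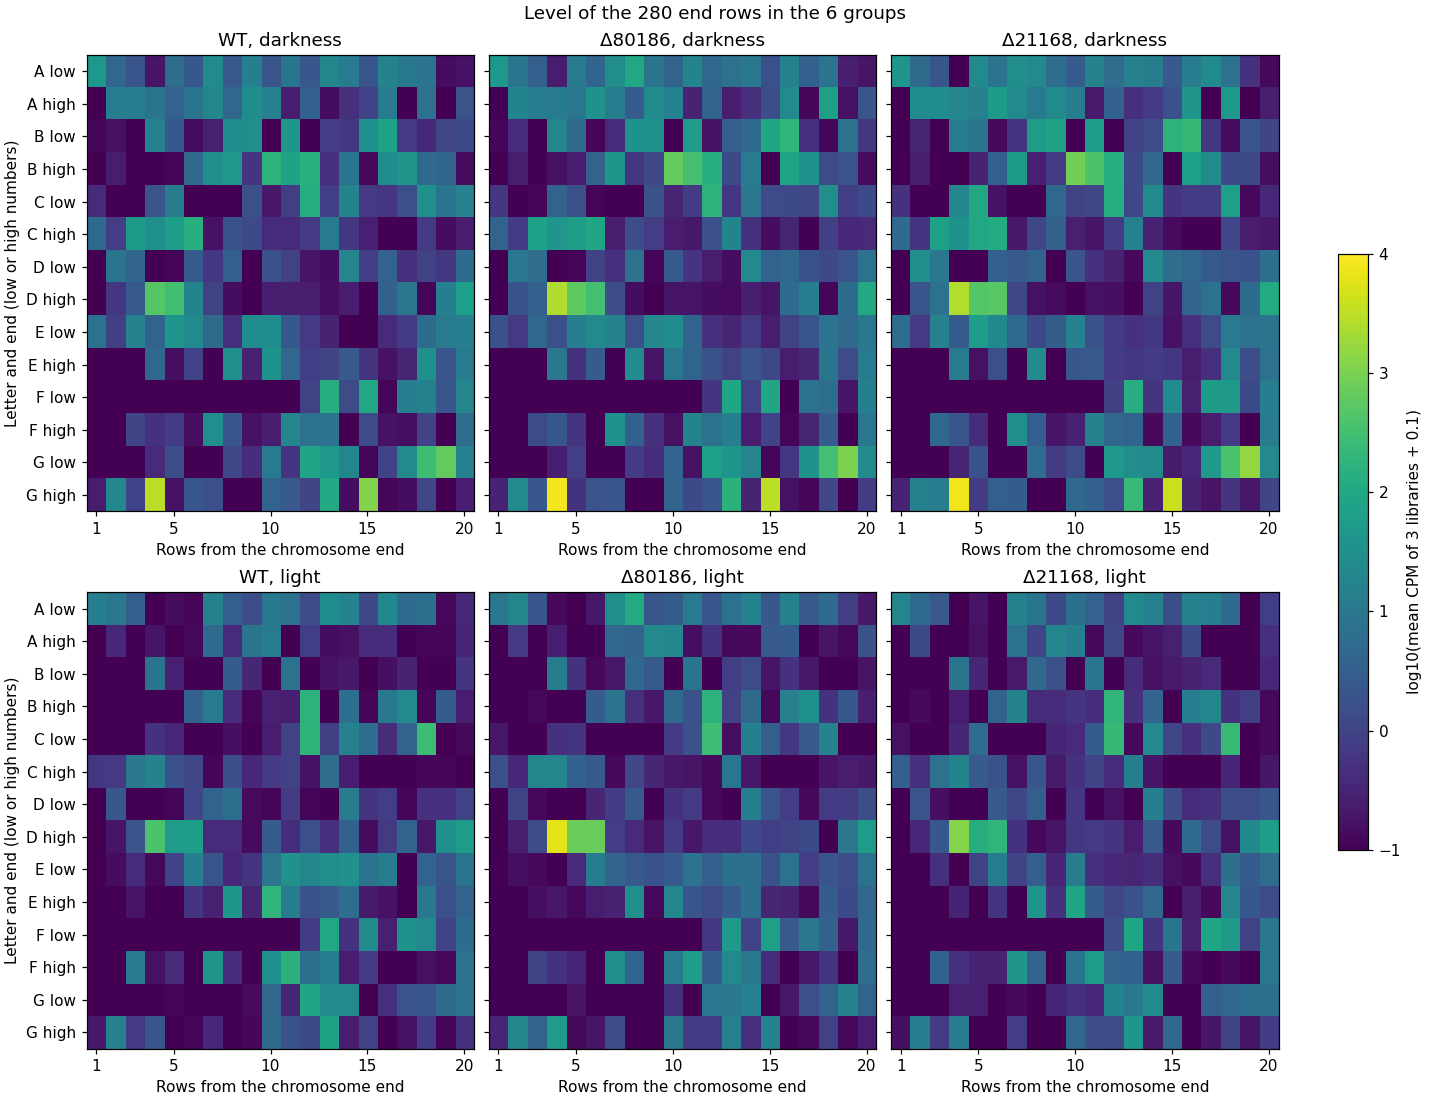
Level of each of the 280 end genes, as the log10 of the mean CPM of 3 libraries plus a small constant, in the 6 groups. Rows of each panel are the 14 ends and columns count genes from the end; the dark stretch at the low end of F is the 11 genes without reads, and the light groups (lower panels) hold fewer bright cells than the dark groups.

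More end genes were detected in darkness than in light. At least 1 CPM was reached by 138 of the 280 end genes (49.3%) in WT in darkness and by 101 (36.1%) in WT in light. In Δ80186 the numbers were 150 in darkness and 113 in light, and in Δ21168 they were 149 and 109. The other genes were at 78.3% in darkness and 75.8% in light in WT, 78.8% and 76.3% in Δ80186, and 79.1% and 77.3% in Δ21168. Levels of at least 100 CPM were reached by 12, 14 and 18 end genes in darkness in WT, Δ80186 and Δ21168, and by 6 in light in each strain. Of the 10599 other genes, 2249, 2235 and 2199 reached it in darkness and 2198, 2283 and 2103 in light.

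The end genes, 2.57% of all rows, took a small part of the reads. Their share of the library in WT was 0.786%, 1.02% and 0.806% in darkness and 0.237%, 0.257% and 0.321% in light. In Δ80186 it was 1.52%, 1.82% and 2.69% in darkness and 0.849%, 0.948% and 0.954% in light. In Δ21168 it was 2.44%, 1.9% and 2.3% in darkness and 0.343%, 0.375% and 0.355% in light. The dark and light libraries of each strain did not overlap, and every dark library of both mutants was above every dark library of WT. TrG1206C and TrD1440W carried 40.6% of these reads in WT in darkness and 67.3% in Δ80186 in light. Without both genes the mean share was 0.516% in darkness and 0.233% in light in WT, 0.926% and 0.3% in Δ80186, and 1.16% and 0.23% in Δ21168.

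**Figure D2:**
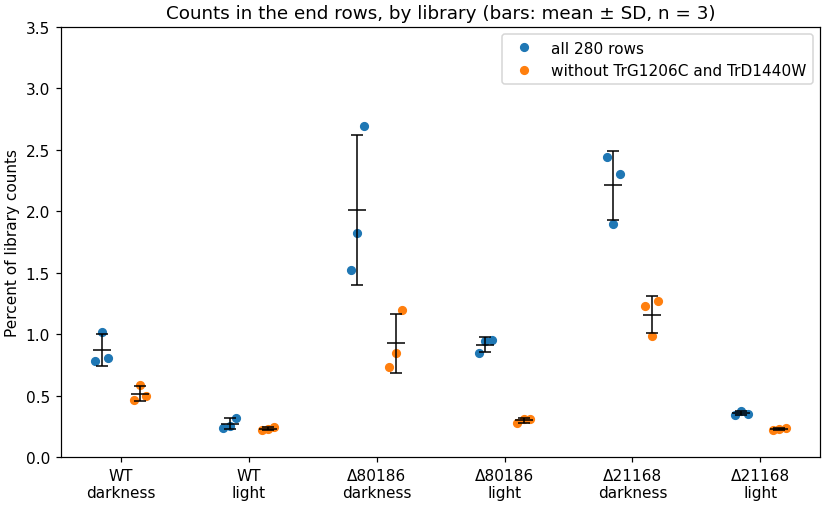
Share of the library counts that fell in the 280 end genes (blue) and in the same genes without TrG1206C and TrD1440W (orange), in percent, for each library; horizontal marks and bars are the mean and SD of 3 libraries. Light libraries lie below the dark libraries of the same strain with and without both genes.

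Light against darkness in WT lowered more end genes than it raised. Of the 181 end genes tested, 136 (75.1%) were called at an adjusted p under 0.05 in edgeR's quasi-likelihood test, where 61.1% of all 9079 genes tested were called. At least 2-fold lower in light were 87 (48.1%) and at least 2-fold higher 27 (14.9%), where the shares of all genes tested were 15.5% and 8.54%. Counted over all 280 end genes, tested or not, the 87 make 31.1%, against 12.5% of all other genes. The median log2 fold change was -1.07 over the end genes and 0.04 over all genes tested. Whether end genes differ from other genes was not tested; these are counts beside their background. A gene could pass the filter through its dark libraries alone, and 48 end genes did, of which 39 were lowered. Of the 121 end genes that reached the filter level in at least 3 dark and at least 3 light libraries of any strain, 48 (39.7%) were at least 2-fold lower, against 12.8% of 8328 others. With 40 genes per end in place of 20, the median relative to all genes tested was -0.69.

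In Δ80186 131 end genes were called by light against darkness (all genes 53.3%), 92 at least 2-fold lower (all genes 13.4%) and 20 at least 2-fold higher (all genes 6.17%), with a median of -1.31. In Δ21168 120 were called (all genes 60.2%), 88 lower (all genes 14.3%) and 13 higher (all genes 7.31%), with a median of -1.29. These 3 comparisons share no libraries. Of the 121 end genes at the filter level in both conditions, 50 (41.3%, others 10.6%) were lowered in Δ80186 and 51 (42.1%, others 11.8%) in Δ21168. With 40 genes per end the medians relative to all genes tested were -0.93 and -0.64. The 87, 92 and 88 lowered genes make up 114 different genes, of which 63 (55.3%, all genes 30.4%) were lowered in all 3 strains. The raised genes make up 33, of which 7 (21.2%, all genes 11.7%) were raised in all 3. Of the lowered genes, 12 in WT (13.8%, all lowered genes 5.47%), 11 in Δ80186 (12%, all 4.53%) and 13 in Δ21168 (14.8%, all 6.09%) had no read in the 3 light libraries. Fitted changes of at least 8-fold made up 52 (59.8%, all lowered genes 35.7%), 50 (54.3%, all 34.5%) and 50 (56.8%, all 29.9%) of them. End genes held fewer reads than others, and the part of this in these shares was not tested.

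Both kinds of end took part. Lowered at least 2-fold in WT were 45 of 94 genes tested at low ends and 42 of 87 at high ends. The numbers were 50 and 42 in Δ80186 and 50 and 38 in Δ21168. Single ends differed widely. The high end of A had 13 of its 14 tested genes lowered in WT, 9 in Δ80186 and 11 in Δ21168, and the low end of B 10 of 11 in each of the 3 strains. At the high end of E 3 of 12 were lowered and 5 raised in WT, and at the high end of F 3 and 4 of 12. The share of lowered genes was greatest in the outermost 5 genes, at 68.6% of those tested in WT, 74.3% in Δ80186 and 77.1% in Δ21168. It did not fall evenly: in WT it was 56.8% at 6 to 10 rows from the end, 22.6% at 11 to 15 and 53.1% at 16 to 20. Just past the boundary of 20 rows, at 21 to 25, it was 38.8%, and beyond 100 rows it was 13.5%. These shares move with the filter. Among genes at the filter level in both conditions, only 19 of the outermost 5 per end were left, with 52.6%, 57.9% and 63.2% lowered in WT, Δ80186 and Δ21168. In WT the next shares were then 51.6%, 21.1%, 42.4% and 31.7%, and 11.7% beyond 100 rows. Lowered genes were not confined to genes with few reads: among genes with a mean above 69.4 CPM, 8 of 16 end genes were lowered in WT, against 9.43% of the others, and 8 and 11 of the 16 in Δ80186 and Δ21168.

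**Figure D3:**
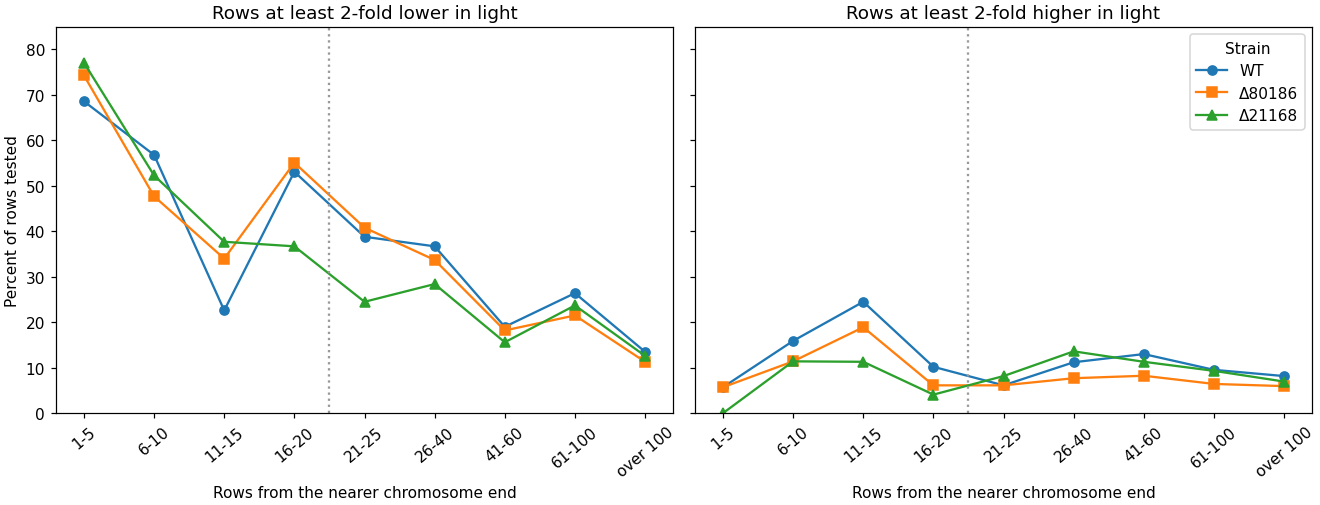
Percent of the genes tested that were at least 2-fold lower (left) or higher (right) in light, by the number of rows from the nearer chromosome end, in 3 strains. The dotted line marks the boundary of 20 rows. The outermost 5 genes have the highest share of lowered genes, 68.6% to 77.1%, which was 52.6% to 63.2% of 19 genes among those at the filter level in darkness and in light.

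**Figure D4:**
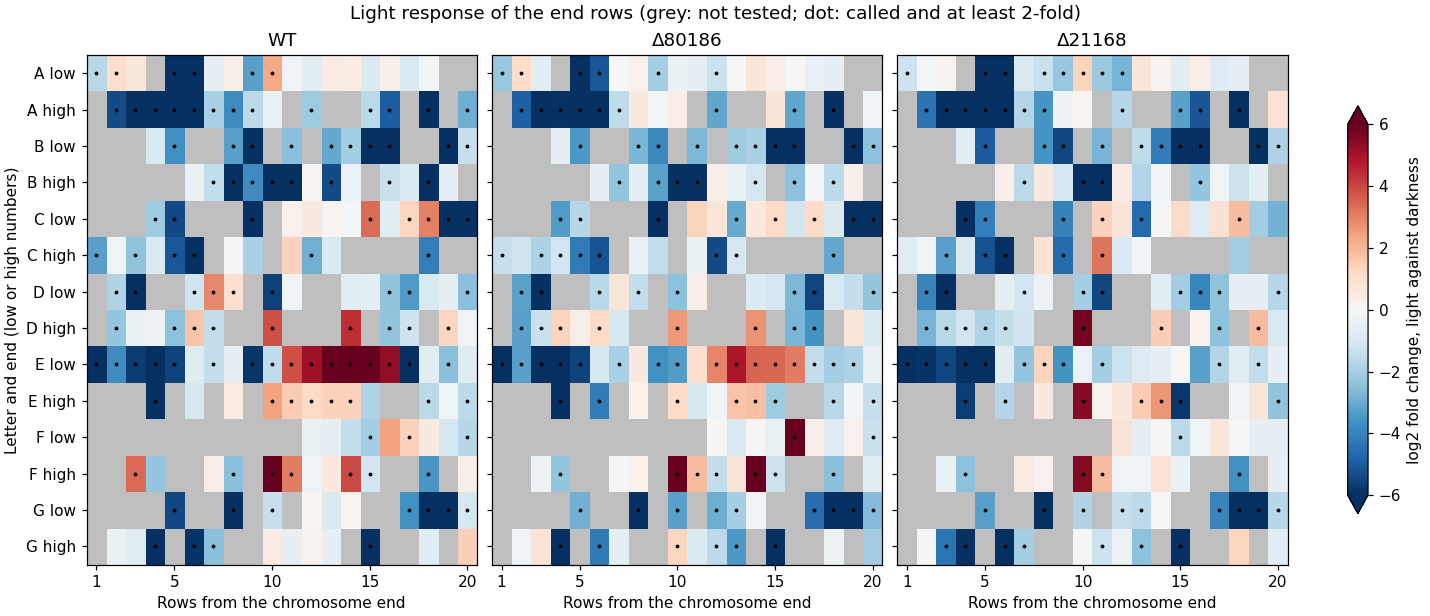
Log2 fold change of light against darkness for each end gene in 3 strains, with the 14 ends as rows and the genes counted from the end as columns. Blue is lower and red higher in light (the scale stops at 6 on either side), grey is not tested and a dot marks genes called and at least 2-fold changed. In all 3 panels the tested genes are blue at the low end of B and mostly blue at the high end of A. The red stretch at the low end of E is missing in Δ21168.

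TrG1206C, 4 rows from the high end of G, was among the genes with the widest change. It had 2710, 4020 and 2570 CPM in WT in darkness and 1.38, 0.707 and 4.16 in light. In Δ80186 it had 5540, 7280 and 12200 CPM in darkness and 10.9, 28.4 and 132 in light, and in Δ21168 8580, 6480 and 8440 in darkness and 0.422, 30.6 and 6.67 in light. Dark and light libraries were far apart in each strain, and the light libraries of a strain varied widely among themselves. The log2 fold change was -10.53 (SE 1.41, adjusted p 2.8e-05) in WT, -7.19 (SE 1.18, 0.00022) in Δ80186 and -9.26 (SE 1.3, 4.7e-05) in Δ21168. Without the third light library it was -11.61 in WT and -8.73 in Δ80186, and without the second it was -11.17 in Δ21168.

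Genes changed in the same direction often lay next to each other. The counts hold raised runs too, namely TrE0011C to TrE0016W and TrE1294W to TrE1298C in WT and TrE0012W to TrE0016W in Δ80186. In WT 7 runs of at least 3 adjacent end genes changed at least 2-fold the same way and held 37 genes, 20.4% of the end genes tested, where such runs held 4.08% of the other genes tested. In Δ80186 8 runs held 34 genes (18.8%, others 3.32%), and in Δ21168 6 runs held 28 (15.5%, others 3.76%). Runs need changed neighbours, so their number moves with the share of changed genes.

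The longest run of lowered genes was TrA2141C to TrA2148W, 8 genes that reach to the last gene but 1 of A, with a median log2 fold change of -6.01 in WT. In Δ80186 it began at TrA2143C (6 genes, median -7.86) and in Δ21168 at TrA2142C (7 genes, median -7.62). These medians cover different genes and do not compare the strains. The WT run also held TrA2141C (-1.62) and TrA2142C (-3.80). Genes without light reads enter the medians of each strain, so their size is uncertain. TrA2144C had 6.42, 10.9 and 7.71 CPM in WT in darkness and 0.0919, 0 and 0 in light. It had 35.6, 32.3 and 41.2 CPM in Δ80186 in darkness and 71.2, 34.8 and 52 in Δ21168 in darkness, and no read in the light libraries of either mutant. Against the floor of 3 reads over the group, it was at least 431-fold lower in Δ80186 and at least 541-fold lower in Δ21168. Without the first light library of Δ80186 the bound was 276, and without the second light library of Δ21168 it was 342. TrA2147C had 11.5, 13.4 and 16.8 CPM in WT in darkness, 13.1, 11 and 13.3 in Δ80186, and 29.1, 20.4 and 31.9 in Δ21168, and no read in any of the 9 light libraries. The bound for it was at least 148-fold lower in Δ80186, and 94.8 without the first light library. TrA2141C, the first gene of the run in WT, had 26.8, 26 and 28.8 CPM in darkness and 5.7, 10.4 and 10.1 in light in WT, and 23.7, 23.7 and 19.3 in light in Δ80186. Its change was -1.62 (SE 0.16, adjusted p 1.3e-07) in WT and missed the threshold in Δ80186 (-0.13, adjusted p 0.51) and Δ21168 (-0.31, 0.11).

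TrA2132C, further in at the same end, had 46.4, 34.9 and 57.9 CPM in Δ21168 in darkness and no read in light, at least 484-fold lower, or 305 without the second light library. In WT it had 5.73, 9.53 and 6.76 CPM in darkness, less than in each dark library of the mutants.

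At the low end of B, the run TrB0013C to TrB0016W was lowered in all 3 strains, with medians of -6.71 in WT, -5.46 in Δ80186 and -7.12 in Δ21168. TrB0015C had 27.6, 44.2 and 31.3 CPM in WT in darkness and no read in light. In Δ80186 it had 73.6, 86.7 and 104 CPM in darkness and 0, 0.0889 and 0.172 in light, and in Δ21168 163, 133 and 213 in darkness and 0, 0.0898 and 0.313 in light. The dark levels were lowest in WT and highest in Δ21168 with no overlap, and all light libraries were near 0. In WT it was at least 458-fold lower in light, or 282 without the second and 300 without the third light library. TrB0013C, the first gene of the run, had 0.614, 0.501 and 1.64 CPM in Δ21168 in darkness, and its call there (-1.52) was lost without the third dark library (-0.77, adjusted p 0.29) and without the second light library (-1.44, adjusted p 0.068) or the third (-1.29, 0.088).

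At the high end of B, TrB1967C to TrB1971C were lowered in WT (5 genes, median -6.92), and TrB1967C to TrB1969W in Δ80186 (3 genes, median -7.04). These medians cover different genes and do not compare the strains. TrB1968W had 134, 231 and 143 CPM in WT in darkness, 465, 576 and 971 in Δ80186 and 977, 751 and 893 in Δ21168, and between 0 and 11.1 in the light libraries of the 3 strains. In darkness both mutants were above WT with no overlap, by 1.99 (SE 0.52, adjusted p 0.01) in Δ80186 and 2.37 (SE 0.52, 0.0024) in Δ21168 on the log2 scale, and these comparisons share the WT libraries. In DESeq2 the adjusted p of Δ80186 was 0.085. TrB1970W, within the run, went the other way. It had 68.1, 34.7 and 33.9 CPM in WT in darkness and at most 0.707 CPM in each of the other 15 libraries. Its dark level was lower by a log2 fold change of -6.35 (SE 0.49, adjusted p 8e-08) in Δ80186 and -7.77 (SE 0.59, 3.4e-08) in Δ21168, the latter -9.42 without the third dark library of Δ21168.

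At the low end of G, TrG0017C to TrG0020C were lowered in each strain, with medians of -5.23, -5.27 and -5.13 in WT, Δ80186 and Δ21168. TrG0019C had 486, 814 and 611 CPM in WT in darkness and 6.25, 6.17 and 4.45 in light. In Δ80186 it had 771, 903 and 1350 CPM in darkness and 5.82, 9.96 and 32.6 in light, and in Δ21168 1050, 1030 and 2510 in darkness and 8.22, 6.11 and 5.83 in light. Its log2 fold change was -6.82 (SE 0.66) in WT, -5.97 (SE 0.62) in Δ80186, or -7.00 there without the third light library, and -7.83 (SE 0.69) in Δ21168. Past the boundary, TrG0021W, the next gene, changed by -0.27 (adjusted p 0.38) in WT, -1.49 (0.0003) in Δ80186 and 0.32 (0.31) in Δ21168. So the run did not go on in WT and Δ21168. TrG0022C, outside the end by 2 rows and chosen after its values were seen, had a mean of 7380 CPM over 18 libraries. Its changes were -9.10, -7.13 and -9.11. Further in, TrG0023W was lowered in all 3 strains and TrG0024W was called in none. In Δ80186 runs were also found at TrC1575C to TrC1578W (4 genes, median -3.05) and TrE0017C to TrE0019W (3 genes, median -1.87), and in Δ21168 at TrD0015C to TrD0017C and TrD1438C to TrD1442C. The call of TrD0015C was lost when fitted without the other groups (-2.12, adjusted p 0.058), which ends that run. TrC1575C, the gene with the most reads at its end, was lowered in all 3 strains, by -7.00, -5.17 and -6.19; a run is lost when 1 of its neighbours misses the threshold.

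The low end of E held neighbouring runs of opposite direction. TrE0001C to TrE0005W were lowered in all 3 strains, with medians of -5.68 in WT, -6.96 in Δ80186 and -6.11 in Δ21168. In Δ80186 TrE0001C and TrE0004C had no read in light, with bounds of 20.2-fold and 19.1-fold and fitted values of -7.38 and -7.29. The median there rests on these fitted values, so its size is uncertain. Genes without light reads also enter the medians of WT and Δ21168. The outermost gene TrE0001C had 5.45, 8.99 and 7.2 CPM in WT in darkness, 1.53, 2.23 and 1.24 in Δ80186 and 3.07, 4.88 and 10.9 in Δ21168, and no read in the 9 light libraries. It was at least 96.2-fold lower in WT, or 59.1 without the second light library and 63 without the third. In Δ80186 the bound was 20.2, or 12.9 without the first light library, and in Δ21168 it was 68, or 43 without the second light library and 39.1 without the third dark library. TrE0011C to TrE0016W were raised in WT, 6 genes with a median log2 fold change of 6.24. In Δ80186 TrE0012W to TrE0016W were raised, 5 genes with a median of 3.45.

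TrE0014C had no read in the dark libraries of WT and 55, 27.1 and 18.4 CPM in light. It had 0.558, 0.638 and 0.584 CPM in darkness and 3.8, 8.71 and 8.07 in light in Δ80186, and 0.819, 0.626 and 0.164 in darkness and 0.211, 0.449 and 0.417 in light in Δ21168. WT and Δ80186 were higher in light with no overlap, and the light and dark values of Δ21168 overlapped. In WT it was at least 434-fold higher in light, or 281 without the first and 289 without the third dark library. The change in Δ80186 was 3.5 (SE 0.53, adjusted p 7e-05), and that in Δ21168 was -0.47 (adjusted p 0.69). In light TrE0013C stood at 53.5, 23.3 and 12.6 CPM in WT and at 0.211, 0.0898 and 0.417 in Δ21168, a log2 difference of -6.93 (SE 0.64, adjusted p 4.4e-07). That difference was -6.23 without the first light library of WT and -7.57 without the third of Δ21168. TrE0016W differed by 361-fold in the same comparison (95% counting interval 64.4 to 14300), with 1 read in the 3 light libraries of Δ21168. Without the first light library of Δ21168 no read was left there and the bound was at least 82.5-fold; without the second the ratio was 228, and without the first light library of WT it was 231. In each of the 6 genes the first light library of WT was the highest of the 3 and the third the lowest.

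**Figure D5:**
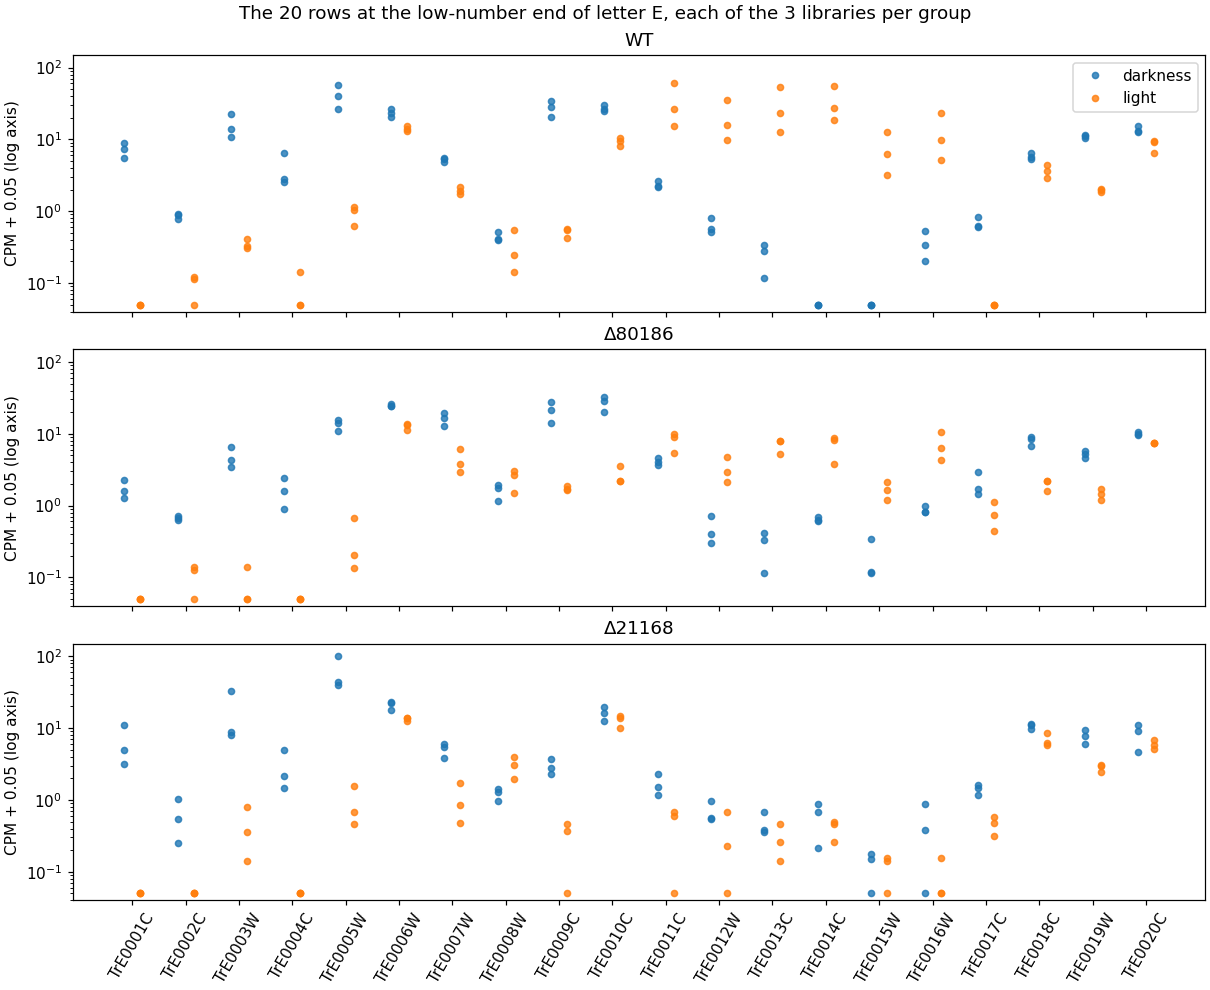
CPM plus a small constant, on a log axis, of the 20 genes at the low end of E in order of their number, each point a library (blue darkness, orange light), in WT, Δ80186 and Δ21168. TrE0001C to TrE0005W are lower in light in each strain, and TrE0011C to TrE0016W are higher in light in WT and, from TrE0012W on, in Δ80186; in Δ21168 none of the 6 was called higher.

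Raised genes also stood at the high ends of E and F. TrE1294W to TrE1298C formed a raised run in WT (5 genes, median 1.40). TrE1298C had 38.5, 36.4 and 38.2 CPM in darkness and 227, 200 and 172 in light in WT. In Δ80186 it had 10.4, 9.19 and 7.95 CPM in darkness and 20.2, 21.7 and 17.4 in light, and in Δ21168 2.46, 3.13 and 0.904 in darkness and 76.9, 118 and 79.6 in light. Light libraries were above dark ones in each strain, by 2.4 (SE 0.2), 1.11 (SE 0.22) and 5.48 (SE 0.28) on the log2 scale. The light response of Δ21168 was larger than that of WT by 3.08 (SE 0.35, adjusted p 1.1e-05).

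TrF1202W had 0.276, 0.0775 and 0.145 CPM in WT in darkness and 21.3, 22.9 and 50.8 in light, in Δ80186 0, 0.0638 and 0.146 in darkness and 10, 11.3 and 12.4 in light, and in Δ21168 0.102, 0.376 and 0.0822 in darkness and 11, 6.47 and 7.19 in light. Every light library was above every dark library. The change was 7.46 (SE 0.49) in WT and 5.52 (SE 0.58) in Δ21168, the latter 6.34 without the second dark library. In Δ80186, with 3 dark reads in all, the pooled ratio was 163 (95% counting interval 55.3 to 793), and 336 without the third dark library. Its neighbour TrF1201C, the gene with the most reads at that end, rose by 3.12 (SE 0.22), 1.9 (SE 0.21) and 1.83 (SE 0.22) in WT, Δ80186 and Δ21168. TrF1198W had 7.22, 10.2 and 10.9 CPM in Δ80186 in light and at most 0.292 CPM in every other library. Its level there was above that in WT in light by 5.9 (SE 0.54, adjusted p 1.6e-07), or 6.81 without the third light library of WT. Light against darkness in Δ80186 gave 6 (SE 0.53, adjusted p 1.5e-07), or 6.94 without the third dark library of Δ80186.

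The outermost gene with reads in every library at the low end of A, TrA0001W, had 46.5, 44.6 and 48.9 CPM in darkness and 14.1, 14.5 and 15.2 in light in WT. Its log2 change in light was -1.68 (SE 0.11), -2.26 (SE 0.11) and -1.22 (SE 0.11) in WT, Δ80186 and Δ21168. Not every end gene moved by 2-fold. TrC0012W, the gene with the most reads at the low end of C, rose by 0.52, 0.71 and 0.76 in light in WT, Δ80186 and Δ21168. These changes were all called in the edgeR test (adjusted p 2.9e-06, 9.0e-08 and 4.2e-08) and all under 2-fold. Of the 181 genes tested, 11 (6.08%) were called in none of the 7 pairwise comparisons, a share near the 6.19% of all genes tested. The 2 with the most reads among these were TrA0018C, with group means of 5.38 to 7.89 CPM, and TrB1972C, with 2.71 to 4.57 CPM.

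In darkness, more end genes tested were at least 2-fold higher than lower in each mutant, and for Δ80186 this order turned with the filter. In Δ80186 against WT 71 of the 181 were called (39.2%, all genes 34.7%), 28 at least 2-fold higher (15.5%, all genes 6.1%) and 21 at least 2-fold lower (11.6%, all genes 5.2%), with a median log2 fold change of 0.23. In Δ21168 against WT 88 were called (48.6%, all genes 47.2%), 48 at least 2-fold higher (26.5%, all genes 8.17%) and 14 lower (7.73%, all genes 7.14%), with a median of 0.40. Both comparisons share the WT dark libraries, so they are not independent. The share called lay near that of all genes in both. Relative to all genes tested, the medians were 0.05 and 0.07 with 40 genes per end. Of the 121 end genes at the filter level in both conditions, 12 were higher and 14 lower in Δ80186, and 28 higher and 10 lower in Δ21168. That level was counted over the strains together, so a gene could still enter through the dark libraries of the mutant in which it was high. Counted over all 280 end genes, those at least 2-fold higher were 10% in Δ80186 and 17.1% in Δ21168, against 4.96% and 6.55% of all other genes. In the outermost 5 genes 45.7% of those tested were at least 2-fold higher in Δ21168, and 14.3% in Δ80186, or 36.8% and 5.26% of the 19 at the filter level in both conditions. At 21 to 25 rows from the end the shares were 6.12% and 12.2%.

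Many of the genes higher in the dark in 1 mutant were lowered by light in the other, a comparison without shared libraries. Of the 48 genes at least 2-fold higher in Δ21168 in darkness, 32 (66.7%) were at least 2-fold lower in light in Δ80186, where 50.8% of all end genes tested were. The 32 make 34.8% of the 92 genes lowered there. Of the 28 higher in Δ80186 in darkness, 24 (85.7%) were lower in light in Δ21168, where 48.6% of all end genes tested were, and the 24 make 27.3% of the 88 lowered there. Among the other genes the shares were 36% of 694 and 58.2% of 526, where 12.6% and 13.6% of those tested were lowered. A gene low in light everywhere passes the filter through its dark libraries, so these counts move with the filter. Among the 121 end genes at the filter level in both conditions, 14 of the 28 higher in Δ21168 (50%) were lowered in Δ80186, where 41.3% of the 121 were, and 9 of the 12 higher in Δ80186 (75%) were lowered in Δ21168, where 42.1% were. The overlap was found among the other genes as well. At that level the shares there were 30.5% of 561 and 55.7% of 411, where 10.6% and 11.8% were lowered. Whether these shares differ was not tested.

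TrD1438C, TrD1439W and TrD1440W, neighbours at the high end of D, were high in the mutants. TrD1440W had 486, 408 and 516 CPM in WT in darkness, 2170, 2380 and 2990 in Δ80186 and 3400, 2590 and 2100 in Δ21168. In light it had 138, 291 and 715 CPM in WT, 5970, 6570 and 6470 in Δ80186 and 1120, 1370 and 1110 in Δ21168. Both mutants lay above WT in either condition with no overlap, and the light libraries of WT spread over the widest range as a ratio of highest to lowest. The log2 difference in darkness was 2.42 (SE 0.44, adjusted p 0.00091) in Δ80186 and 2.52 (SE 0.44, 0.00041) in Δ21168, and in light 4.05 (SE 0.47, 7.6e-06) and 1.66 (SE 0.43, 0.0078). Without the third light library of WT the differences in light were 4.90 and 2.47, and when fitted without the other groups the adjusted p of Δ21168 in light was 0.13. TrD1438C had 19.8, 13.5 and 20.4 CPM in WT in darkness, 258, 300 and 408 in Δ80186 and 631, 467 and 388 in Δ21168, and its differences were 4.17 (SE 0.48) and 4.79 (SE 0.49). TrD1439W, between them, fell in light in WT (-2.46, SE 0.25, adjusted p 1e-06), and its change of 0.42 (SE 0.23, adjusted p 0.14) in Δ80186 missed the threshold.

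TrA0008W had 2.62, 1.7 and 2.76 CPM in WT in darkness and 109, 99.7 and 76.1 in Δ80186, and in light 0.919, 2.64 and 5.38 in WT and 97.2, 130 and 117 in Δ80186. Δ80186 was above WT by 5.32 (SE 0.42, adjusted p 4.5e-07) in darkness and by 5.21 (SE 0.41, 9.9e-08) in light, the latter 5.93 without the third light library of WT. In Δ21168 it had 31.1, 22.9 and 13.2 CPM in darkness and 9.38, 7.9 and 9.06 in light. These values lie above those of WT and below those of Δ80186.

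TrG1207W, next to TrG1206C, had 0.898, 0.93 and 0.872 CPM in WT in darkness and 18.2, 10.5 and 11.3 in Δ21168, a log2 difference of 3.88 (SE 0.45, adjusted p 2e-06). Lower in the mutants in darkness were the neighbours TrC0019C and TrC0020W. TrC0020W had 9.39, 10.1 and 29 CPM in WT, 1.39, 1.53 and 0.803 in Δ80186 and 0.307, 0.125 and 0.411 in Δ21168. The groups did not overlap, and the third WT library was the highest. The difference was -3.68 (SE 0.46, adjusted p 1.7e-05) in Δ80186, and -5.71 (SE 0.59, 1.2e-06) in Δ21168, or -2.95 and -4.98 without that WT library. TrC0019C had 5.87, 5.89 and 12.6 CPM in WT and 1 read over the 3 libraries of Δ21168, a pooled ratio of 244 (95% counting interval 43.4 to 9650), or at least 48.2-fold lower without the third library of Δ21168, which held that read.

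In light, end genes higher and lower in the mutants were about equal in number. In Δ80186 against WT 93 were called (51.4%, all genes 58.7%), 34 at least 2-fold higher (18.8%, all genes 10.5%) and 36 lower (19.9%, all genes 9.2%). In Δ21168 against WT 68 were called (37.6%, all genes 40%), with 27 at least 2-fold higher (14.9%, all genes 6.65%) and 27 lower (14.9%, all genes 4.62%). The share called was below that of all genes in both, and the shares at least 2-fold higher or lower were above it. The part of the fewer reads of end genes in this was not tested. These comparisons share the WT light libraries.

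TrC0018C had 279, 241 and 270 CPM in WT in light, 12.2, 20.2 and 18.2 in Δ80186 and 222, 243 and 238 in Δ21168. In darkness it had 26.1, 39.6 and 31.5 CPM in WT, 31.9, 31.8 and 29.3 in Δ80186 and 55.6, 54.5 and 86.5 in Δ21168. Δ80186 stood below the other strains in light and overlapped WT in darkness. The difference from WT in light was -3.97 (SE 0.21, adjusted p 7.7e-10). TrC0005C, at the same end, had 88.1, 106 and 118 CPM in Δ21168 in darkness and 4.53, 8.44 and 5.31 in light, against 8.49, 12 and 16 in darkness and 0.0919, 0.322 and 0.358 in light in WT. Δ21168 was above WT by 3.1 (SE 0.22) in darkness and 4.45 (SE 0.41, adjusted p 2.5e-07) in light. TrD1428C was above WT in Δ21168 in light by 2.97 (SE 0.58, adjusted p 0.00061), with 7.9, 1.44 and 5.83 CPM against 0.0919, 0.707 and 1. TrF1209W had 9.92, 14.5 and 8.75 CPM in WT in light and 1.01, 0.711 and 1.37 in Δ80186, a difference of -3.41 (SE 0.38, adjusted p 6.1e-07).

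The light response of the mutants was compared with that of WT as an interaction. For Δ80186 59 end genes were called (32.6%, all genes 41.8%). Differences of at least 2-fold were towards higher in light in 19 (10.5%, all genes 8.23%) and towards lower in 30 (16.6%, all genes 8.1%). For Δ21168 48 were called (26.5%, all genes 30.6%), 12 towards higher (6.63%, all genes 6.02%) and 27 towards lower (14.9%, all genes 5.4%). The share called was below that of all genes in both, and the share at least 2-fold towards lower was above it. End genes held fewer reads than others, and the part of this was not tested. Opposite responses of WT and mutant, each called and at least 2-fold, were found in 1 end gene for Δ80186, TrD0008W (0.552%, all genes 0.672%), and in 3 for Δ21168 (1.66%, all genes 0.606%), TrD0007C, TrE0011C and TrD1438C. TrD0008W had 2.35, 3.56 and 3.49 CPM in darkness and 6.52, 6.24 and 6.24 in light in WT, and 5.72, 6.95 and 8.68 in darkness and 1.94, 2.58 and 3.09 in light in Δ80186. Its light response was 1.02 (SE 0.35, adjusted p 0.018) in WT and -1.49 (SE 0.36, 0.002) in Δ80186. Without the first dark library of WT the response of WT was 0.80 with an adjusted p of 0.098. TrD0007C, the gene next to it, had 0.552, 0.62 and 0.436 CPM in darkness and 4.32, 3.67 and 4.23 in light in WT, and 3.17, 2.5 and 1.64 in darkness and 0.948, 0.449 and 1.88 in light in Δ21168. In Δ21168 the highest light value exceeded the lowest dark value. Its response was 2.9 (SE 0.39, adjusted p 5.4e-06) in WT and -1.16 (SE 0.4, 0.017) in Δ21168. The call in Δ21168 was lost without the first dark library (-0.94, adjusted p 0.074), without the second light library (-0.84, 0.065) and in the fit of only the groups compared (-1.19, 0.098), and the change was -1.80 (0.0014) without the third light library. In TrE0011C the response was 3.87 (adjusted p 4.0e-06) in WT and -2.02 (SE 0.84, adjusted p 0.049) in Δ21168. The latter call was lost without each of the 6 libraries of Δ21168 in turn (-2.51 to -1.47, adjusted p 0.055 to 0.16), with library totals (0.052) and with no filter (0.055). In TrD1438C the response was 1.73 (SE 0.45, adjusted p 0.0045) in WT and -1.43 (SE 0.42, 0.01) in Δ21168. The response of WT was 0.93 (adjusted p 0.027), under 2-fold, without the third light library of WT, and its adjusted p was 0.09 when fitted without the other groups.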

How the data were processed

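The authors deposited 1 table of whole-number counts per gene, without normalisation, in 18 columns of 1 library each. Per the labels' protocols, RNA was extracted with an RNeasy plant mini kit and libraries were made with a stranded kit after rRNA depletion. The aligner was HISAT2 2.2.1, per the submitters' processing notes. How multiply aligned reads and strand were handled in counting, and which genome build was used, is not given in the sources used here. So near-identical copies, which repeat-rich chromosome ends can hold, and overlapping or antisense neighbours could not be separated. Each column was tied to its sample through the sample descriptions, and groups came from the titles.

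The filter was filterByExpr with groups given (count minimum 10, total minimum 15), and 9079 of 10879 genes passed. All 18 libraries in 6 groups entered 1 quasi-likelihood fit of edgeR 4.0.16 in R 4.3.3, with TMM scaling, robust dispersions and 12 residual degrees of freedom, and Benjamini-Hochberg adjustment over the 9079. The SE was taken from the log2 fold change and F, as their ratio with F under a root. Where a group had 0 reads, the fold is a lower bound against 3 reads over the group; with 1 to 3 reads, the ratio of pooled reads has a 95% counting interval. Both cover counting error only. The code was tested on simulated data. Within groups no 2 libraries agreed within sampling noise (chi-square per degree of freedom 4.37 to 85.5), and their rank correlation was 0.979 to 0.996, lowest with the first dark library of Δ21168.

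Named genes are those with the largest changes among called genes with at least 5 CPM and no overlap, the interactions with the smallest adjusted p, the gene with the most reads and the outermost gene of each end, the edges of runs, genes of opposite response, and the 2 genes with the most reads among those never called. The members, lists and rules were chosen with earlier results of these data known. Alternatives were DESeq2 1.42.0, library totals, other filters, 10 or 40 genes per end, only the groups compared, the replicate number as a block, each library left out, and shares without the 10 rows with the most reads.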

Additional observations from a re-analysis of the deposited data

Results flagged for a closer look

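The interaction term of the edgeR fit was called in 59 end genes for Δ80186 (32.6%, all genes 41.8%) and 48 for Δ21168 (26.5%, all genes 30.6%). The 11 genes given here are those that the naming rules picked from them. Values are log2 differences of the responses, mutant minus WT, with the adjusted p over all genes tested. For Δ80186 the difference was 1.62 in TrF0015W (adjusted p 2.7e-07), which fell in light by -2.07 in WT and by -0.45 in Δ80186. It was 2.88 in TrD1439W (adjusted p 1.3e-05), and its 3 light libraries of Δ80186, at 752, 787 and 770 CPM, stood above those of WT at 35.1, 51.3 and 80.7. It was -3.91 in TrC0018C (adjusted p 7.2e-08), where the response was 3.02 in WT and -0.88 in Δ80186. It was -2.73 in TrA0010C (adjusted p 1.8e-06), with a response of 2.33 in WT and -0.4 in Δ80186 (adjusted p 0.13). It was -2.50 in TrD0008W (adjusted p 0.00064), which rose in WT and fell in Δ80186.

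For Δ21168 the difference was 3.08 in TrE1298C (adjusted p 1.1e-05), higher in light in both strains. It was 2.60 in TrC1580C (adjusted p 2e-05), the outermost gene at the high end of C, which fell by -3.27 in WT and by -0.68 in Δ21168 (adjusted p 0.01, and 0.054 when fitted without the other groups). It was -3.85 in TrF1209W (adjusted p 2.7e-05), with a response of 3.42 in WT and -0.42 in Δ21168 (adjusted p 0.31), and -2.03 in TrA0011C (adjusted p 4.3e-05), with -0.2 in WT (adjusted p 0.39) and -2.23 in Δ21168. It was -5.88 in TrE0011C (adjusted p 0.00023), or -5.18 without the first light library of WT, and -4.07 in TrD0007C (adjusted p 3.6e-05), or -4.71 without the third light library of Δ21168.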

How the results depend on the processing

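No value scored for a named gene changed sign under an alternative. A median relative to all genes was scored as reversed only if its sign changed and it moved by at least its limit. That limit was the largest SD of the library medians within a group, and no median was scored so. Sign changes of medians near 0 within this limit were not counted, and counts and shares were not scored for direction. The order of higher and lower end genes in Δ80186 against WT in darkness was not scored. It turned among genes at the filter level in both light conditions, with 12 higher and 14 lower. Of the values for summary results under an alternative, 340 stayed within their limits and 33 moved, and of those for named genes, in the comparisons that named them, 951 kept their call and 4 lost it. DESeq2, library totals, the other filters on low counts, the fit of only the groups compared and each library left out kept every count within 1.5 times its value. The calls lost were the 3 of TrB0013C given above and that of TrD0015C in light against darkness in Δ21168, -2.12 with an adjusted p of 0.058 in the fit of only the groups compared. An alternative chosen after seeing the data, only genes at the filter level in both light conditions, left 48, 50 and 51 genes lowered by light in WT, Δ80186 and Δ21168 and 10 raised in Δ80186; it keeps fewer genes, and its other counts stand beside the results above. The number of genes taken per end moved most values. With 10 per end, 83.5% were called by light in WT and 78.5% in Δ21168. Medians relative to all genes tested, with 10 and 40 per end, were -2.17 and -0.69 for light in WT, -1.95 and -0.93 in Δ80186, -1.84 and -0.64 in Δ21168, and 0.32 and 0.05 for Δ80186 against WT in darkness; with 10 it was 0.48 for Δ80186 in light and 0.23 for its interaction, and with 40 it was 0.07 for Δ21168 in darkness. Shares of the library with 10 and 40 per end were 0.506% and 2.77% in WT in darkness, 0.103% and 1.05% in WT in light, 1.35% and 4.87% in Δ80186 in darkness, 0.807% and 1.58% in Δ80186 in light, 1.37% and 5.61% in Δ21168 in darkness, and 0.206% and 1.31% in Δ21168 in light. Those passing the filter were 56.4% and 71.2%. Without the 10 rows with the most reads the light shares were 0.987% in Δ80186 and 0.396% in Δ21168. The replicate numbers do not pair the samples (correlations of same-numbered libraries from -0.239 to 0.446), and with the replicate block 136, 132 and 119 end genes were called by light in WT, Δ80186 and Δ21168. Of the 280 end genes 181 had enough reads to be tested; whether more reads would add others was not tested.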
